A study of Homo sapiens with 16 samples.

Results

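The chemokine messages CCL2, CCL3, CCL4, CCL5 and CXCL8 and the inflammatory cytokine messages IL1B, TNF and IL18 were followed through a labelling chase in THP-1, a monocyte-like line from a human leukaemia. These 8 genes were chosen by name, as secreted inflammatory products of monocytes, out of 60564 genes with a row in the deposited data. Earlier results of these data were known when they were chosen. All 8 were among the 16241 genes that passed the filter on low values. The measurement was SLAM-seq, in which cells take up 4-thiouridine (4sU) and the labelled positions of new RNA are read as T-to-C conversions. The 4sU dose was 100 µM for 1 h. Cells were then washed, moved to 10 mM uridine and collected after a chase of 0, 1.5, 4.5 or 7.5 h, and poly(A) RNA was sequenced. The knockdown group (label A5-KD, knock-down of the RNA m6A demethylase ALKBH5) and the control group (label wild type) had 8 libraries each, 2 at each chase time. Both groups received the same 4sU pulse and uridine chase. How the knockdown was made, and whether it was 1 clone, is not given in the sources used here. The columns of the knockdown were identified by elimination, since those of the control carry its initial, and the values were read as conversion rates from their range and the assay.

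Chemokines are small secreted proteins that direct leukocyte migration through G-protein-coupled receptors, and TNF and IL-1β are secreted by activated monocytes to start local inflammation. Many messages of this kind carry AU-rich elements in the 3′ untranslated region (UTR), built from the pentamer ATTTA in DNA letters, to which proteins such as tristetraprolin bind and recruit the deadenylation machinery. Such messages are made in bursts and are removed quickly, whereas CCL5 is known as a chemokine whose expression lasts longer after activation.

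The AU-rich stretches are shown because messages of this kind are known for such elements and the 3′ UTRs of the 8 genes differ in how many they hold. For each gene with a pentamer, 30 bases with the most pentamers of its 3′ UTR are printed 5′ to 3′ on the strand of the message, with every ATTTA in capitals. The letters were read from the GENCODE 29 transcripts (GRCh38, the assembly also called hg38). The CCL2 stretch lies at chr17:34256950-34256979 on the plus strand, that of CCL3 at chr17:36088486-36088515 on the minus strand and that of CCL4 at chr17:36105415-36105444 on the plus strand. The CXCL8 stretch lies at chr4:73743111-73743140 on the plus strand, that of IL1B at chr2:112829995-112830024 on the minus strand and that of TNF at chr6:31578006-31578035 on the plus strand. All 6 stretches are exonic and lie within the 3′ UTR.
CCL2: aatgttaattcttATTTAagttattgatgt
CCL3: attttaATTTATTTAtactATTTAgttttt
CCL4: gtcccttctcttaATTTAatcttttttatg
CXCL8: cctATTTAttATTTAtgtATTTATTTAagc
IL1B: cgcttccctATTTATTTATTTAtttgtttg
TNF: attATTTATTTAttATTTATTTATTTAcag

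Pentamers were counted on the sense strand only, overlaps included. Each 3′ UTR was compared with regions of its own length. These were the 3′ ends of all 3′ UTRs of tested genes that were at least as long, 7109 of them for TNF. The TNF 3′ UTR, 799 bases long, held 9 of them, and 0.267% of 3′ UTR regions of that length held as many or more. The CXCL8 3′ UTR of 1252 bases also held 9, a number reached by 2.48% of regions of its length. IL1B had 6 in 610 bases, a number reached by 1.78% of regions of that length, and CCL3 had 4 in 416 bases, reached by 4.70%. CCL4 had 2 in 309 bases, reached by 20.6% of regions, and CCL2 had 1 in 376 bases, reached by 56.6%. No pentamer stood in the 886 bases of the CCL5 3′ UTR or the 345 bases of the IL18 3′ UTR, where 79.5% and 54.0% of regions of the same length held at least 1. The longer nonamer TTATTTATT, which contains the pentamer, occurred 5 times in TNF, 2 times in IL1B, 1 time in CXCL8 and in none of the other 5 genes.

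Library-wide values set the scale for what follows. The median conversion rate over the 16241 tested genes, in percent of T positions, averaged 1.18, 1.09, 0.732 and 0.533 along the 4 chase times in knockdown libraries, and 0.548, 0.475, 0.319 and 0.252 in control libraries. The knockdown medians were 2.11 to 2.30 times those of control at the same chase time. The rate is a share of the message's T positions. It falls as labelled molecules are lost and as unlabelled ones are made, and it carries no information on how much of a message is present. For that reason the rates of ALKBH5 itself, 0.108 to 3.31% in knockdown libraries and 0.0982 to 0.812% in control libraries, could not check the knockdown. Abundance came from a single CPM column of unstated library. In it, 15 of 16 monocyte markers passed the filter (FCN1 was at 0), whereas CD3D, CD3G, CD8A and PRF1 of T and NK cells, MS4A1, CD79A and IGHM of B cells and HBB, HBA1 and HBG1 of red cells were at 0. Of the lymphoid markers, 3 of 11 for T and NK cells and 3 of 6 for B cells passed, among them NCAM1 (309 CPM) and PAX5 (36.7 CPM). The number of bases behind each rate is unknown, so no counting interval could be given. Between 2.39 and 12.9% of tested genes were listed at 0 in a library, but none of the 8 messages was listed at 0 in any.

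**Figure D1:**
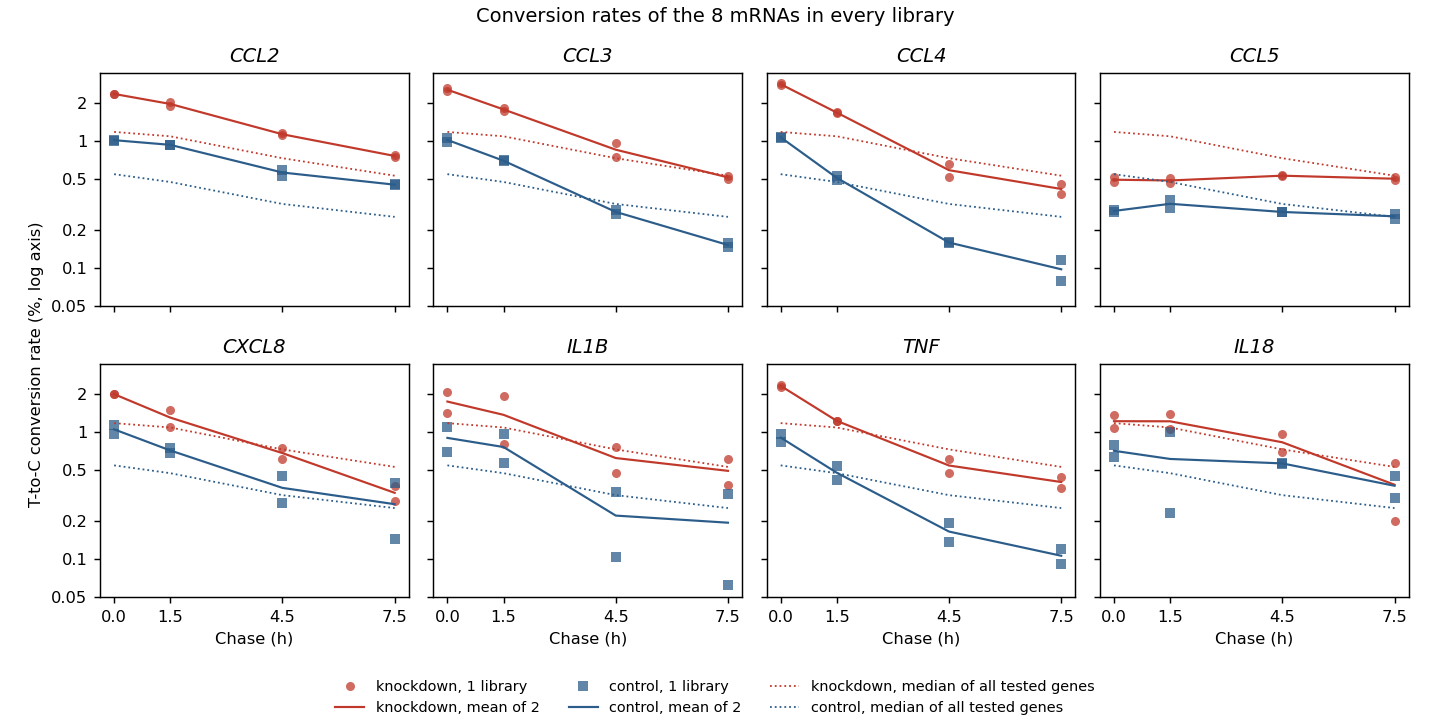
Conversion rate in percent (log axis) against hours of chase for each of the 8 messages. Circles are single knockdown libraries, squares single control libraries, solid lines means of the 2 libraries, and dotted lines medians of all tested genes. CCL4 falls to 0.455 and 0.381% in knockdown and to 0.115 and 0.0790% in control, whereas CCL5 stays between 0.469 and 0.536% in knockdown and between 0.242 and 0.342% in control.

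CCL3 and CCL4, the macrophage inflammatory proteins that attract monocytes and T cells, had the lowest mean rates of the 5 chemokines in control at 7.5 h. They were listed at 627 and 191 CPM. CCL4 had rates of 2.77 and 2.86% before the chase, 1.66 and 1.70% after 1.5 h, 0.662 and 0.516% after 4.5 h and 0.455 and 0.381% after 7.5 h in knockdown libraries. Its control rates were 1.09 and 1.05%, then 0.530 and 0.495%, 0.157 and 0.159%, and 0.115 and 0.0790% at the same times. Knockdown libraries were higher at every time with no overlap, and the mean rate left at 7.5 h was 14.9% of that at 0 h in knockdown and 9.07% in control. CCL3 had 2.48 and 2.61%, 1.74 and 1.81%, 0.752 and 0.959%, and 0.530 and 0.503% along the chase in knockdown libraries. In control libraries it had 0.980 and 1.06%, 0.703 and 0.697%, 0.286 and 0.266%, and 0.157 and 0.145%. Again the groups did not overlap at any time, and 20.3% of the 0 h rate was left in knockdown at 7.5 h, against 14.8% in control. The decline of the CCL4 rate slowed late in the chase. The log2 of its mean rate changed by −0.50 per hour in knockdown and −0.71 in control between 0 and 1.5 h, by −0.50 in knockdown and −0.57 in control between 1.5 and 4.5 h, and by −0.16 in knockdown and −0.23 in control between 4.5 and 7.5 h. The last control rates were near those of the monocyte marker LYZ, which did not fall and had 0.0782 and 0.0789% in control at 7.5 h. The share of such low rates that comes from sequencing mismatches was not measured, so the late slowing and the share left cannot be read as decay alone.

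Both genes have near-identical copies on chromosome 17, CCL3L1 and CCL4L2, so how reads were divided between gene and copy is uncertain. The compared transcripts were 96.1% identical over the aligned bases in each pair. The copies also lost label, with slopes of −0.29 log2 per hour in knockdown and −0.28 in control for CCL3L1, and −0.26 in knockdown and −0.24 in control for CCL4L2. CCL3L1 carried the same 30-base stretch as CCL3, while the CCL4L2 3′ UTR held 1 pentamer, not 2. CCL3 is also overlapped on the opposite strand by AC243829.4, CCL5 by AC015849.1 and IL18 by AP002884.3, and whether counting used strand is not given in the sources used here.

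CCL2, which recruits monocytes through CCR2, was listed at 1042 CPM and kept more of its label. Knockdown libraries had 2.35 and 2.36%, 1.90 and 2.03%, 1.11 and 1.15%, and 0.772 and 0.754% at the 4 chase times. Control libraries had 1.01 and 1.03%, 0.930 and 0.938%, 0.534 and 0.595%, and 0.449 and 0.456%. The 2 libraries of a group lay close together at each time and the knockdown was higher throughout. At 7.5 h, 32.4% of the 0 h rate was left in knockdown and 44.5% in control.

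CCL5, a T-cell and monocyte attractant, was listed at 546 CPM and had nearly level rates. They were 0.473 and 0.517%, 0.469 and 0.508%, 0.536 and 0.530%, and 0.520 and 0.488% in knockdown libraries, in order of chase time. In control libraries they were 0.274 and 0.287%, 0.342 and 0.297%, 0.278 and 0.273%, and 0.242 and 0.267%. CCL5 therefore started below the library median in both genotypes and reached about that median at 7.5 h, with 102% of the 0 h rate left in knockdown and 90.7% in control. No unlabelled library was analysed here, so the share of these low rates that comes from sequencing mismatches was not measured.

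CXCL8, the neutrophil attractant interleukin-8, was listed at 31.4 CPM. It had 2.0 and 2.0%, 1.11 and 1.51%, 0.753 and 0.616%, and 0.378 and 0.287% along the chase in knockdown libraries. Control libraries gave 1.14 and 0.974%, 0.686 and 0.751%, 0.278 and 0.449%, and 0.143 and 0.398%. The groups were separate up to 4.5 h and overlapped at 7.5 h, where control replicate 2 lay above both knockdown libraries.

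TNF, the cytokine that activates endothelium and other leukocytes through its receptors TNFR1 and TNFR2, had 26 CPM. Its knockdown rates were 2.38 and 2.27%, 1.22 and 1.24%, 0.479 and 0.614%, and 0.365 and 0.444% at the 4 times. Its control rates were 0.842 and 0.973%, 0.420 and 0.538%, 0.137 and 0.192%, and 0.0916 and 0.120%. The knockdown libraries were the higher ones at every time, and 17.4% of the 0 h rate remained at 7.5 h in knockdown against 11.7% in control. The first 1.5 h showed the steepest change, −0.61 log2 per hour in both genotypes, against −0.14 in knockdown and −0.21 in control over the last 3 h. The last control rates were about as low as those of CCL4, so the limit on mismatches given for CCL4 applies to TNF too.

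IL1B, which encodes the precursor that caspase-1 cleaves to IL-1β, was at 21.3 CPM and its replicates spread widely. Knockdown libraries had 1.41 and 2.08%, 0.812 and 1.94%, 0.480 and 0.771%, and 0.610 and 0.381%. Control libraries had 0.703 and 1.10%, 0.569 and 0.961%, 0.335 and 0.104%, and 0.324 and 0.0624%. The groups overlapped at 1.5 h only. IL18, a related cytokine that is present in resting monocytes and is also cleaved by caspase-1, was listed at 8.57 CPM. Its rates were 1.08 and 1.37%, 1.38 and 1.06%, 0.700 and 0.967%, and 0.20 and 0.571% in knockdown libraries, and 0.788 and 0.641%, 1.00 and 0.231%, 0.561 and 0.574%, and 0.454 and 0.302% in control libraries. For IL18 the 7.5 h libraries overlapped and knockdown replicate 1 was the lowest of the 4.

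The change over the whole chase was tested gene by gene as a slope per hour of log2(rate in percent + 0.05), a scale that understates the change of low rates, with limma and Benjamini-Hochberg adjustment over all 16241 genes. In knockdown, 7 of the 8 slopes fell (adjusted p under 0.05), where 37.9% of all tested genes fell. In control, 6 of the 8 fell, where 34.4% of all tested genes did. The median slope of the 8 messages was −0.27 in knockdown and −0.29 in control, and that of all tested genes was −0.13 in knockdown and −0.11 in control. CCL4 had the steepest slope in both, −0.36 ± 0.0369 (SE, 8 libraries, adjusted p = 2.2e-06) in knockdown and −0.39 ± 0.0369 (adjusted p = 1.3e-06) in control. On this scale that corresponds to a halving in 2.79 h in knockdown and 2.55 h in control. These times come from a straight line over the whole chase, although the CCL4 decline slowed late, so they overstate the time the early fall took. The measured mean CCL4 rate at 1.5 h was already down to 59.7% of its 0 h value in knockdown and 47.9% in control. TNF fell by 0.31 per hour in knockdown (adjusted p = 1.8e-05) and by 0.35 in control (9.1e-06), and CCL3 fell by 0.30 in knockdown (3.8e-08) and by 0.33 in control (5.5e-08). The slope of CXCL8 was −0.32 in knockdown (adjusted p = 1.5e-05) and −0.26 in control (1.3e-04).

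CCL2 fell by 0.21 per hour in knockdown (SE 0.0131, adjusted p = 3.8e-08) and by 0.16 in control (5.1e-07). IL1B fell by 0.24 in knockdown (adjusted p = 0.0141) and by 0.32 in control (0.00218). Its knockdown call ended without knockdown 0 h replicate 2 or without knockdown 7.5 h replicate 2, with slopes that stayed between −0.28 and −0.21 over all omissions of 1 library. IL18 fell by 0.23 in knockdown (adjusted p = 0.0119), while its control slope of −0.09 did not pass (adjusted p = 0.324). Without knockdown 7.5 h replicate 1 the IL18 slope in knockdown was −0.14 and was no longer called. CCL5 did not pass in either genotype, with 0.01 (95% interval −0.02 to 0.04, adjusted p = 0.711) in knockdown and −0.02 (−0.05 to 0.01, adjusted p = 0.185) in control. When each library was centred on its own median, CCL5 slopes were positive and called, 0.16 in knockdown (adjusted p = 1.4e-06), a call made for 17.7% of all tested genes, and 0.11 in control (6.5e-05), where 17.6% were called. CCL2 kept a called fall after centring in knockdown (−0.06) and did not pass in control (−0.02, adjusted p = 0.204). CCL3, CCL4, TNF and CXCL8 kept called negative slopes after centring in both genotypes, at −0.15, −0.21, −0.16 and −0.17 in knockdown and −0.19, −0.26, −0.22 and −0.12 in control. IL1B and IL18 passed in neither genotype after centring, and the IL18 slope in control then had the opposite sign (0.05). Falls after centring were called for 8.62% of all tested genes in knockdown and 9.46% in control.

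**Figure D2:**
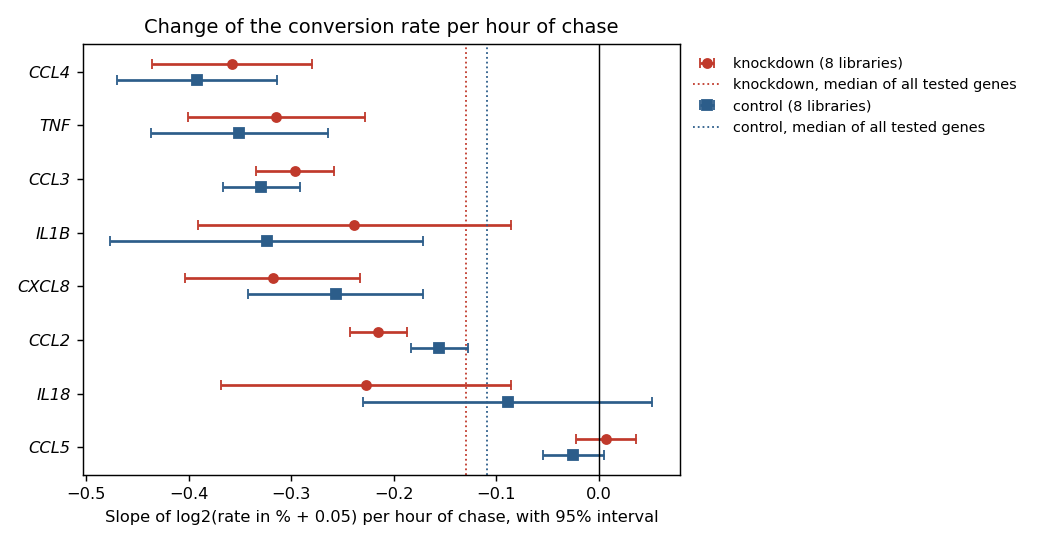
Slope per hour of chase of log2(rate in percent + 0.05) for the 8 messages, with 95% intervals from limma. Circles are knockdown, squares control, each from 8 libraries, and dotted lines mark the medians of all tested genes (−0.13 in knockdown, −0.11 in control). CCL4 lies farthest to the left, at −0.36 in knockdown and −0.39 in control. CCL5 lies at 0.01 in knockdown and −0.02 in control, and the control slopes of CCL5 and IL18 change sign when libraries are centred on their medians.

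The messages of CCL3, CCL4, CXCL8, IL1B, TNF and IL18 were then set against CCL5 and CCL2 within each library, so that a factor common to all rates of a library largely cancels. The slope per hour of the log2 ratio was tested by an exact two-sided permutation of the chase times over the 8 libraries of a genotype (2520 arrangements, 26 comparisons). It passed an adjusted p of 0.05 in 20 of 26, of which 11 were in knockdown and 9 in control. How many other genes would pass against CCL5 or CCL2 was not tested. Since CCL5 was nearly level, the slopes against it share 1 denominator and largely repeat the single-gene slopes. By limma those fell for 37.9% of all tested genes in knockdown and 34.4% in control. Against CCL5, CCL3 changed by −0.30 log2 per hour in knockdown (exact permutation p = 0.000397, the smallest possible, adjusted p = 0.00258) and by −0.30 in control (adjusted p = 0.00413). CCL4 against CCL5 gave −0.37 in both knockdown and control (adjusted exact permutation p = 0.00516 in each). TNF against CCL5 gave −0.32 in knockdown and −0.33 in control (0.00516 in each), and CXCL8 gave −0.33 in knockdown (0.00258) and −0.23 in control (0.00963, exact permutation). IL1B against CCL5 gave −0.25 in knockdown (0.0143) and −0.30 in control (0.0299, exact permutation). That control call ended without either 0 h library, either 1.5 h library, 4.5 h replicate 1 or 7.5 h replicate 2 of the control, with slopes of −0.42 to −0.23 over all omissions. IL18 against CCL5 passed in knockdown at −0.23 (adjusted exact permutation p = 0.00516) and did not in control at −0.06 (0.476), where it passed without control 1.5 h replicate 2. CCL2 itself lost label against CCL5, by −0.22 per hour in knockdown (0.00258) and −0.13 in control (0.00516, exact permutation).

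Set against CCL2, the differences were smaller. CCL3 changed relative to CCL2 by −0.08 log2 per hour in knockdown (adjusted exact permutation p = 0.00516) and −0.17 in control (0.00258). CCL4 gave −0.14 in knockdown (0.0115) and −0.24 in control (0.00590), and TNF gave −0.10 in knockdown (0.0392) and −0.20 in control (0.00590) by the same exact permutation test. The TNF call in knockdown ended when any knockdown library other than 7.5 h replicate 2 was left out, with slopes of −0.13 to −0.08, and at a pseudocount of 0.2 (−0.08, adjusted exact permutation p = 0.0743). CXCL8 passed in knockdown at −0.10 (0.00967) and missed in control at −0.10 (0.0919, exact permutation), where it passed without control 7.5 h replicate 2 (−0.17). IL1B and IL18 did not pass against CCL2 in either genotype, although IL1B in control did without control 7.5 h replicate 1. Without the 0 h libraries no comparison passed, and the lowest adjusted exact permutation p, shared by several comparisons, was 0.0578. The remaining chase times are evenly spaced, so each arrangement has a mirror image with a slope of equal size. The two-sided p of 6 libraries therefore cannot fall to 0.0111, the share of 1 arrangement. With so few arrangements the test had little room to pass, and the lost calls decide nothing. In knockdown the slopes against CCL5 were then −0.29 for CCL3, −0.31 for CXCL8 and −0.23 for CCL2, near those over all times, whereas TNF against CCL2 was −0.03 in knockdown and −0.13 in control.

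**Figure D3:**
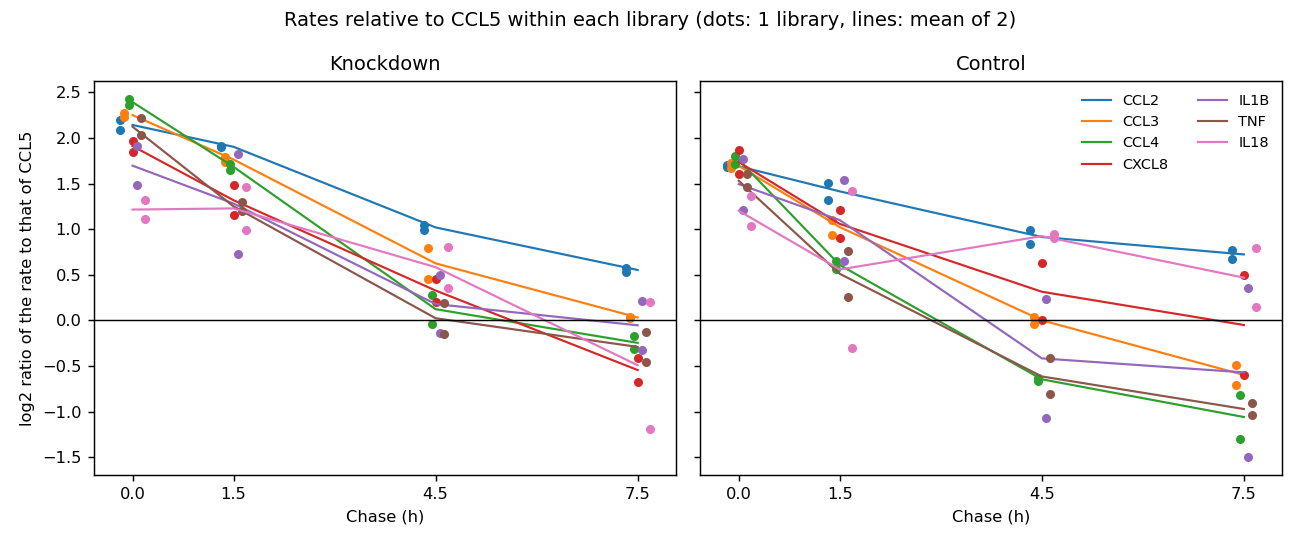
log2 ratio of each message's rate to that of CCL5 in the same library, against hours of chase, knockdown on the left and control on the right. Dots are single libraries, shifted sideways for legibility, and lines are means of 2. CCL2 stays above CCL5 to 7.5 h in all libraries, whereas CCL4 and TNF lie below it at 7.5 h in all 4 libraries of that time.

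Whether the speed of label loss differed between knockdown and control was tested as the difference of the slopes. None of the 8 messages passed, and neither did any of the 16241 genes by limma, of which 1269 had an unadjusted p under 0.05. The largest standardised difference among the 8 was that of CCL2, −0.06 per hour (95% interval −0.10 to −0.02, unadjusted p = 0.00541, adjusted p = 0.448). CCL3, CCL4, CCL5 and TNF differed by 0.03 to 0.04 per hour and IL1B by 0.09, with adjusted p-values of 0.743 to 0.920. CXCL8 and IL18 differed by −0.06 and −0.14 (adjusted p = 0.845 and 0.761). The intervals were narrow for CCL3 (−0.02 to 0.09) and CCL5 (−0.01 to 0.07) and wide for IL1B (−0.13 to 0.30) and IL18 (−0.34 to 0.06), so differences of those sizes could not be told apart from none here.

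The level of the rates did differ between the groups. Over the 4 times, 7 of the 8 messages were higher in knockdown by limma (adjusted p under 0.05), where 69.6% of all tested genes were, and after centring each library on its median 4 of the 8 (CCL2, CCL5, CXCL8 and IL18) had the opposite sign. The all-gene median of this effect was 1.02 log2, and the 8 messages are best read against it. CCL4 was 1.57 log2 higher in knockdown (SE 0.0762, adjusted p = 4.2e-10), TNF 1.41 (6.0e-08) and CCL3 1.38 (7.7e-11), all above that median. IL1B was 1.12 higher (adjusted p = 0.00314), also above it. Below the median stood CCL2 at 0.96 (3.3e-09), CCL5 at 0.74 (2.9e-08), CXCL8 at 0.73 (0.00144) and IL18 at 0.59, which did not pass (0.0816). IL18 passed when knockdown 7.5 h replicate 1, control 1.5 h replicate 1 or control 7.5 h replicate 1 was left out, within a range of 0.36 to 0.77.

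After centring, CCL4 (0.52, adjusted p = 0.00106) and CCL3 (0.33, 0.00531) remained higher in knockdown by limma, a call made for 1.45% of all tested genes. CCL5 was lower by that measure (−0.31, adjusted p = 0.00999), a call made for 4.59%. TNF (0.36, adjusted p = 0.0823), IL1B (0.07, 0.934), CCL2 (−0.09, 0.373), CXCL8 (−0.32, 0.306) and IL18 (−0.46, 0.411) did not pass. Knockdown and control libraries differed in their medians at every time, and the part of that shift in each gene's effect was not tested.

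**Figure D4:**
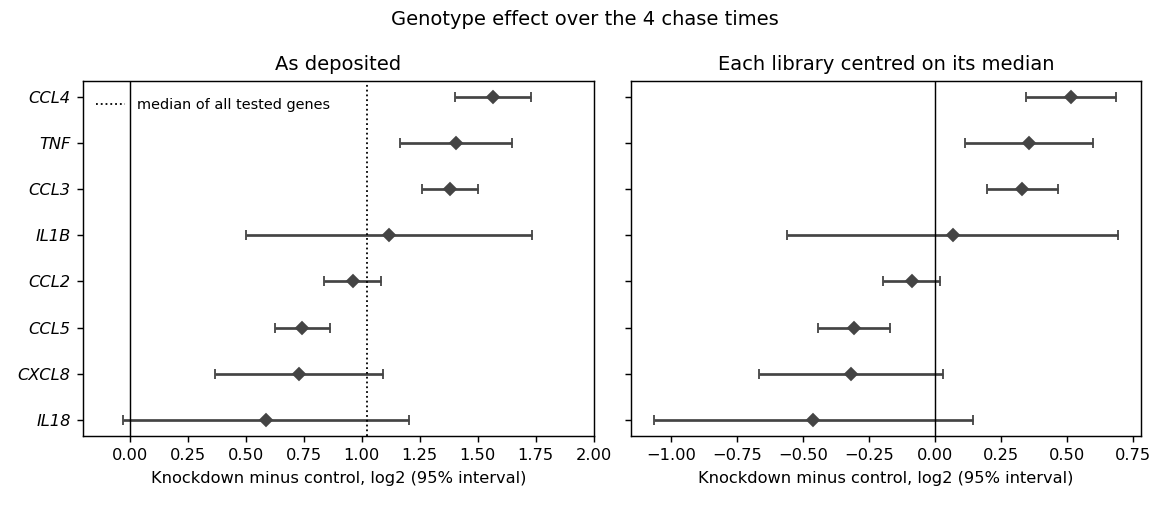
Knockdown minus control over the 4 chase times in log2(rate in percent + 0.05), with 95% intervals from limma on 16 libraries. The left panel uses the rates as deposited, with the median of all tested genes (1.02) dotted, and the right panel has each library centred on its median. CCL4, TNF and CCL3 lie right of the dotted line at 1.57, 1.41 and 1.38, and CCL2, CCL5, CXCL8 and IL18 change sign in the right panel.

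The ratio of knockdown to control was not the same along the chase for every message. For CCL4 the ratio of the mean rates was 2.63, 3.28, 3.73 and 4.31 from the first to the last chase time, and for TNF it was 2.56, 2.57, 3.32 and 3.82. CCL3 behaved alike, with 2.49, 2.54, 3.10 and 3.42, whereas CCL2 gave 2.32, 2.1, 2.01 and 1.69. CXCL8 gave 1.90, 1.82, 1.88 and 1.23 and IL18 gave 1.71, 1.98, 1.47 and 1.02, with overlapping groups at 7.5 h for both. IL1B gave 1.94, 1.80, 2.85 and 2.57, and CCL5 gave 1.77, 1.53, 1.93 and 1.98. The library medians had ratios of 2.16, 2.30, 2.30 and 2.11 at those times, and as given above no slope difference passed its test. At a pseudocount of 0.2 the slope differences of CCL3, CCL4 and TNF had the opposite sign.

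At the end of the pulse (0 h), 5 of the 8 messages were higher in knockdown by limma, where 35.6% of all tested genes were. They were CCL4 (1.35), TNF (1.31), CCL3 (1.28), CCL2 (1.17) and CCL5 (0.72). For CXCL8 the 0 h effect of 0.90 did not pass (adjusted p = 0.0704) and did without either control 7.5 h library, at a pseudocount of 0.2 and with a CPM minimum of 20. After centring none of the 8 was called higher at 0 h, where 0.0493% of all tested genes were, and CCL5, CXCL8, IL1B and IL18 had the opposite sign. At 7.5 h, 5 of the 8 were again higher, where 33.5% of all tested genes were. They were CCL4 (1.68), TNF (1.55), CCL3 (1.50), CCL5 (0.86) and CCL2 (0.69), of which CCL3 (0.55, adjusted p = 0.0392) and CCL4 (0.73, 0.0481) passed after centring by limma (0.4% of all tested genes) and CCL2 and CCL5 had the opposite sign. For CXCL8 the 7.5 h effect of 0.37 did not pass (adjusted p = 0.449), and without control 7.5 h replicate 2 it was 0.98 and passed, while without control 7.5 h replicate 1 it was −0.24. IL1B passed at 7.5 h without control 7.5 h replicate 1 only.

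Among all tested genes, median slopes were steeper where the 3′ UTR held more pentamers, and the 8 messages can be placed in those classes. Of 12231 tested genes with a 3′ UTR in GENCODE 29, 69.7% held a pentamer and 8.19% held the nonamer. The median slope was −0.09 log2 per hour in knockdown and −0.07 in control for 3701 genes with no pentamer, and −0.20 in knockdown and −0.18 in control for 1589 genes with 10 or more. The median 3′ UTR was 333 bases long in the class with none and 4450 in the class with 10 or more, so pentamer number and length cannot be told apart there. CCL5 lay above its class median in both genotypes, and all the other messages lay below theirs. That includes IL18, which has no pentamer, and CCL2, which has 1. The class with 1 pentamer had a median of −0.14 in knockdown and −0.11 in control. CCL4, with 2 pentamers, had a steeper slope than TNF and CXCL8 with 9 each, and IL18, with none, fell in knockdown at −0.23, so the order of the 8 slopes did not follow the pentamer count.

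**Figure D5:**
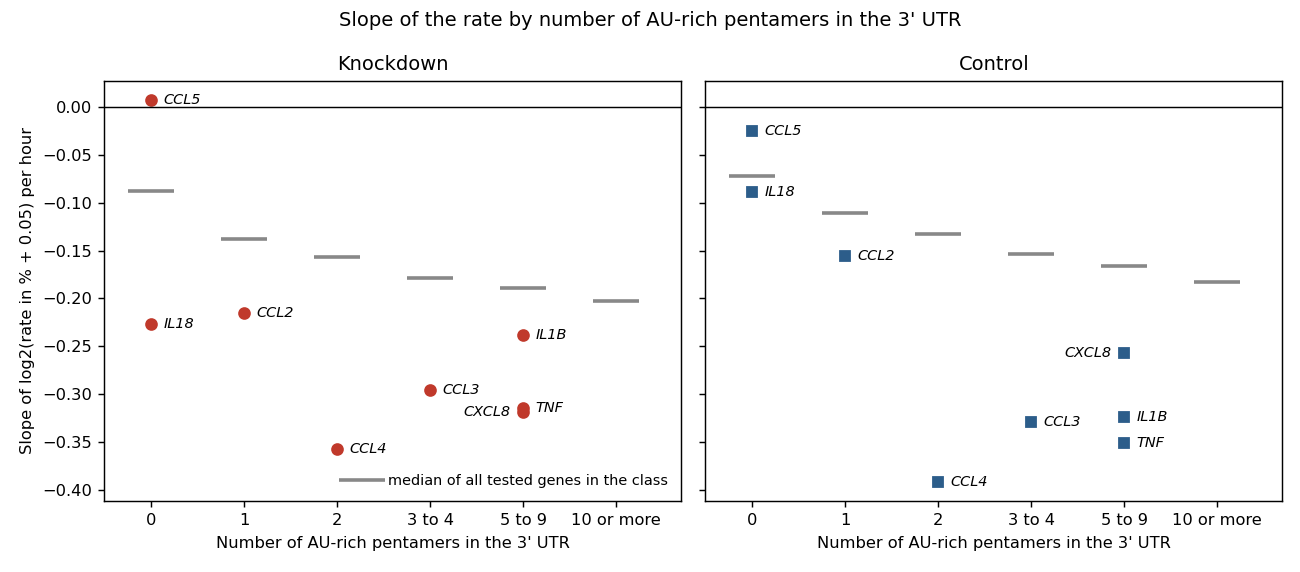
Slope per hour of log2(rate in percent + 0.05) against the class of pentamer number in the 3′ UTR, knockdown on the left and control on the right. Coloured points are the 8 messages and grey dashes the medians of all tested genes in a class (−0.09 in knockdown and −0.07 in control with none, −0.20 in knockdown and −0.18 in control with 10 or more). CCL4, with 2 pentamers, is the lowest point in both panels.

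Related genes were counted from lists of the pathway, which were drawn up with earlier results of these data known. Of 13 tested other chemokines, 8 fell in knockdown, where 37.9% of all tested genes fell, and 6 fell in control, where 34.4% did, with a median slope of −0.21 in each. The 13 include CCL3L1 and CCL4L2, the near-identical copies of CCL3 and CCL4, whose calls are not separate from those of the 8 messages. None of the 13 rose as deposited, but after centring 3 fell and 3 rose in knockdown, and 4 fell and 2 rose in control. Of all tested genes, 8.62% fell and 17.7% rose in knockdown after centring, and 9.46% fell and 17.6% rose in control. CXCL10, an interferon-induced chemokine, passed in neither genotype (0.00 in knockdown, adjusted p = 0.995, and 0.01 in control, 0.823). After centring it was called rising, as CCL5 was, at 0.15 in knockdown (4.2e-04) and 0.14 in control (6.4e-04). CCL8, a monocyte attractant of the same gene cluster as CCL2, fell by 0.30 per hour in knockdown (limma adjusted p = 4.65e-07) and 0.24 in control (3.5e-06), and by 0.15 in knockdown and 0.11 in control after centring, both called.

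Of 17 other cytokines, 7 fell and 1 rose in knockdown, and 4 fell in control (median slopes −0.19 in knockdown and −0.10 in control). The shares that fell lay near or below those of all tested genes, and after centring 1 fell and 1 rose in knockdown, and 1 fell and 3 rose in control. Among all tested genes 8.62% fell and 17.7% rose in knockdown after centring, and 9.46% fell and 17.6% rose in control. MIF, a cytokine kept in ready-made stores, was the one that rose as deposited, by 0.06 per hour in knockdown (0.00735), with 0.04 in control (0.0548). In knockdown 4.06% of all tested genes rose. The MIF call ended without the variance trend (limma adjusted p = 0.0617), and after centring MIF was called rising in both genotypes, at 0.21 in knockdown and 0.18 in control. TNFSF13B, the B-cell survival factor BAFF, fell by 0.19 in knockdown (1.1e-05) and 0.26 in control (6.6e-07), and after centring the knockdown slope was −0.04 and no longer called (0.250). TNFSF10, the death ligand TRAIL, fell by 0.09 in knockdown (0.0238) and gave −0.05 in control (0.202). Its knockdown call ended without knockdown 0 h replicate 1 or either knockdown 7.5 h library, and after centring its slopes were 0.06 in knockdown (0.132) and 0.08 in control (0.0315). IL32 passed in neither genotype as deposited. Its control slope was called rising after centring (0.45, limma adjusted p = 0.0209) and with a CPM minimum of 20 (0.31, 0.0476). Both control 0 h libraries listed IL32 at 0.

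Among 21 tested receptors of these ligands and of related cytokines, 12 fell in knockdown and 11 in control (median slopes −0.24 in knockdown and −0.17 in control), beside the 37.9% and 34.4% of all tested genes given for those groups. After centring 3 fell and 2 rose in knockdown, where 8.62% of all tested genes fell and 17.7% rose. In control 4 then fell and 2 rose, where 9.46% of all tested genes fell and 17.6% rose. IL1RAP, the co-receptor for IL-1, fell by 0.27 per hour in knockdown (limma adjusted p = 2.4e-05) and 0.24 in control (8.7e-05), and stayed called after centring at −0.12 in knockdown (0.0166) and −0.10 in control (0.0353). CSF2RA, a GM-CSF receptor chain, fell by 0.25 in knockdown (0.00112) and 0.22 in control (0.00291), and IL15RA by 0.19 in knockdown (0.00285) and 0.22 in control (0.000985). Centring ended these 4 calls, with CSF2RA at −0.10 in knockdown (0.169) and −0.09 in control (0.222) and IL15RA at −0.04 in knockdown (0.601) and −0.09 in control (0.205). CSF3R, the G-CSF receptor, did not pass as deposited (0.05 in knockdown and −0.05 in control), and was called rising in knockdown after centring (0.20, 0.00642). Of 3 antagonists, IL1RN, the natural blocker of the IL-1 receptor, fell by 0.16 in knockdown (0.0274) and gave −0.09 in control (0.215), while SIGIRR and IL18BP passed in neither. The IL1RN call ended without replicate 1 of the knockdown at 0, 1.5 or 7.5 h, with slopes as small as −0.07, with no CPM minimum (0.0526) and after centring (−0.0079, 0.930).

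The 13 genes that mature or release the cytokines had 4 that fell and 1 that rose in knockdown and 4 that fell in control (median slopes −0.13 in knockdown and −0.10 in control). The shares that fell were below those of all tested genes. After centring 2 fell and 3 rose in knockdown, where 8.62% of all tested genes fell and 17.7% rose. In control 1 then fell and 3 rose, where 9.46% of all tested genes fell and 17.6% rose. CASP1, which cleaves the IL-1β and IL-18 precursors, was the one that rose as deposited (0.13 in knockdown, limma adjusted p = 0.0357), with 0.12 in control (0.0554). That call ended without knockdown 0 h replicate 1, without replicate 2 of the knockdown at 1.5, 4.5 or 7.5 h, with no CPM minimum (0.0664) and without the variance trend (0.0578), whereas after centring CASP1 was called rising in both genotypes, at 0.28 in knockdown and 0.25 in control. ADAM17, which sheds TNF from the membrane, fell by 0.17 in knockdown (2.0e-05) and 0.16 in control (5.0e-05), and after centring both calls ended (−0.02 in each genotype, 0.539 in knockdown and 0.477 in control). PYCARD, the inflammasome adaptor, and CASP4 passed in neither genotype as deposited. After centring PYCARD was called rising at 0.22 in knockdown (1.6e-04) and 0.22 in control (2.5e-04), and CASP4 at 0.14 in knockdown (9.0e-04).

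Genotype effects passed for 9 of 13 chemokines (CCL3L1 and CCL4L2 among the 13), 10 of 17 cytokines, 14 of 21 receptors, 1 of 3 antagonists and 10 of 13 maturation genes, all higher in knockdown before centring, where 69.6% of all tested genes were. After centring none of these genes was called higher, and 2 chemokines, 1 cytokine, 1 receptor and 1 maturation gene (CASP1, −0.85, adjusted p = 0.00654) were called lower, where 4.59% of all tested genes were.

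Profiles closest to 3 of the messages were sought by Pearson correlation of centred log2 rates over the 16 libraries, as a description, since all points share libraries, genotype and chase time. For CCL4 they were PBX3 (r = 0.976), MBNL1 (0.976) and DPYD (0.974), and for CCL3 they were MT-CO2 (0.968), MED13L (0.965) and MEF2C (0.964). The profiles closest to CCL5 were GSTP1 (0.984), MALAT1 (0.983) and B2M (0.980), whose own slopes as deposited lay between 0.01 and 0.07 in knockdown and between −0.01 and 0.06 in control.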

How the data were processed

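The deposited table gave 1 fraction per gene and library, read here as a T-to-C conversion rate from the values and the assay since its columns name only library and time. CASAVA, HISAT2 2.1.0 and the hg38 build are named per the submitters' processing notes. The conversion caller is not given in the sources used here. The authors' table has 1 CPM column, by its header, used for abundance, for the variance trend and to keep genes with a CPM from 1 upwards that had any non-zero rate. The C columns carry the initial of the control, and the S columns were taken as the knockdown by elimination. Gene symbols missing in 41255 rows were filled by gene ID for 41027.

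Rates were multiplied to percent and modelled as log2(percent + 0.05) in limma 3.58.1 (R 4.3.3), with a trend in log2(CPM + 0.01), Benjamini-Hochberg adjustment over 16241 genes and a threshold of 0.05. The fits used genotype with chase time as a factor, 8 group means, or an intercept and slope per genotype. The fits were tested on simulated data. Ratios within libraries were tested by exact permutation in Python 3.11.15 (numpy 2.4.6, pandas 2.3.3). 3′ UTRs came from the principal GENCODE 29 transcript, the longest UTR where several. Alternatives were other pseudocounts, CPM minimums, centring, no variance trend, a replicate block and the omission of single libraries. The text names all 8 messages, up to 4 tested genes of highest CPM per pathway list, and the 3 most similar profiles of CCL3, CCL4 and CCL5 among tested genes at or above the median CPM. The members and lists were chosen with earlier results of these data known. No label ties the 2 replicates of a group to different cultures, and p-values then measure the spread between these libraries, which may be technical.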

Additional observations from a re-analysis of the deposited data

How the results depend on the processing

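Centring each library on its median moved the calls most: the genotype effect passed for 3 of the 8 messages (3 at either other pseudocount), the 0 h effect for 0 (0 at 0.01, 1 at 0.2) and the 7.5 h effect for 2 (2 at 0.01, 0 at 0.2). The centred fits with another pseudocount were chosen after seeing the data. Centred genotype effects turned to −0.087 for CCL2, −0.31 for CCL5, −0.32 for CXCL8, −0.46 for IL18, −0.29 for CCL8, −0.060 for MIF, −0.29 for TNFSF10, −0.73 for CSF3R, −0.16 for CSF2RA, −0.30 for IL15RA, −0.59 for SIGIRR, −0.24 for PYCARD, −0.18 for CASP4 and −0.85 for CASP1. With a pseudocount of 0.01 they were −0.13 for CCL2, −0.31 for CCL5, −0.34 for CXCL8 and −0.51 for IL18, and with 0.2 they were −0.29 for CCL5, −0.24 for CXCL8, −0.00086 for IL1B and −0.35 for IL18. At 0 h the centred effects at pseudocounts 0.05, 0.01 and 0.2 were −0.32, −0.30 and −0.35 for CCL5, −0.15, −0.17 and −0.072 for CXCL8, −0.12, −0.14 and −0.062 for IL1B and −0.31, −0.33 and −0.25 for IL18. At 7.5 h they were −0.25, −0.31 and −0.14 for CCL2, −0.084, −0.091 and −0.065 for CCL5 and −0.58, −0.61 and −0.47 for CXCL8. Centred slopes turned to 0.057 for TNFSF10 and 0.14 for CASP4 in knockdown, and in control to 0.11 for CCL5, 0.047 for IL18, 0.083 for TNFSF10, 0.086 for CSF3R, 0.046 for IL1RN, 0.11 for IL18BP and 0.072 for CASP4. A pseudocount of 0.2 turned the slope differences of CCL3, CCL4 and TNF to −0.016, −0.036 and −0.025 and IL18 against CCL2 in knockdown to 0.010, and one of 0.01 turned the IL18BP slope in control to 0.049.

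Without the 0 h libraries 0 of the 26 ratio comparisons passed, in a test with little room to pass as described above, and IL1B against CCL2 in knockdown was 0.0025. Omitting 1 library left 7 to 8 messages called for the genotype effect, 5 to 6 at 0 h, 5 to 6 at 7.5 h, 6 to 7 slopes in knockdown, 6 in control, 0 slope differences and 19 to 21 ratios. Values that changed sign on an omission ranged from −0.75 to 0.56 (IL18 at 7.5 h), −0.24 to 0.98 (CXCL8 at 7.5 h), −0.021 to 0.025 (CXCL10, knockdown slope), −0.0072 to 0.032 (CXCL10, control slope), −0.11 to 0.18 (IL32, knockdown slope), −0.36 to 0.038 (IL18BP, knockdown slope), −0.17 to 0.068 (IL18BP, control slope), −0.0016 to 0.079 (CCL4 slope difference), −0.11 to 0.012 (CXCL8 slope difference), −0.065 to 0.0036 (IL1B against CCL2, knockdown) and −0.057 to 0.078 (IL18 against CCL2, knockdown). None of them was called with all libraries. Slopes not called with all libraries were called on some omission for CASP1, IL32, MIF, PYCARD and TNFSF10 in control and for PYCARD and SIGIRR in knockdown, and so were the genotype effects of CSF3R, IL18BP and IL32. Over all tested genes, 11325 genotype effects passed, against 5164 with a CPM minimum of 20 and 982, 668 and 1668 after centring at pseudocounts 0.05, 0.01 and 0.2. The minimum of 20 left a much smaller set of genes, as the median CPM of tested genes was 9.66. Its counts, here and for the slopes below, therefore do not show that a smaller share passed. At 0 h 5807 passed, against 89, 53 and 423 after centring, 3331 and 3414 without knockdown 0 h replicate 1 or 2 and 3777 without control 0 h replicate 1. At 7.5 h 5498 passed, against 179, 228 and 218 after centring. Slopes passed for 6810 genes in knockdown (3435 with a CPM minimum of 20, 4267 after centring) and for 6148 in control (3061 with that minimum). Slope differences passed for 0 genes, against 1 without the variance trend and 2 without control 7.5 h replicate 2.

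With the replicate number as a block, 7 genotype effects, 5 effects at 0 h, 5 at 7.5 h, 7 slopes in knockdown, 6 in control, 0 slope differences and 21 ratio comparisons passed, the added one being CXCL8 against CCL2 in control (adjusted exact permutation p = 0.0474). Same-numbered libraries did not deviate together (28 correlations of −0.021 to 0.049), so the numbers were not taken to pair them. Depth per rate is unknown, and IL18, IL1B, TNF and CXCL8, the 4 messages with the lowest CPM, had the widest slope intervals. IL18 was not tested with a CPM minimum of 20. Causes were not tested.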

Other observations

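The estimated loss of label of CCL2 relative to CCL5 was faster in knockdown than in control by 0.09 log2 per hour, which did not pass after adjustment. The comparison was chosen after seeing the data. Permuting genotype within each chase time gave an exact p of 0.00772 (1296 arrangements), which after adjustment over the 13 pairs was 0.10. The difference had the same sign at pseudocounts of 0.01 and 0.2, with adjusted exact permutation p of 0.10 and 0.211. The other 12 pairs had adjusted p-values of 0.535 to 0.991 by the same exact permutation test.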
